A study of Mus musculus with 14 samples.

Results

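The genes described are the subunits of oxidative phosphorylation, the protein machinery of the inner mitochondrial membrane that turns the oxidation of fuel into ATP. They were chosen by symbol alone. Protein-coding genes named Ndufa, Ndufb, Ndufc, Ndufs or Ndufv, Sdha to Sdhd, Uqcr, Cox4i to Cox8 and Atp5 were taken from the nuclear genome, without the Ndufaf assembly factors, and mt-Nd, mt-Co, mt-Cytb and mt-Atp genes from the mitochondrial genome. This gave 99 of the 55450 gene identifiers in the count files, with 98 different symbols because Atp5o has 2 identifiers. Of these, 86 are nuclear, with 38 in complex I, 4 in complex II, 8 in complex III, 18 in complex IV and 18 in complex V. The other 13 are mitochondrially encoded, with 7 in complex I, 1 in complex III, 3 in complex IV and 2 in complex V. Grouping by name places Ndufa4, which is known as a subunit of complex IV, with complex I, and leaves out Cyc1, the cytochrome c1 of complex III.

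The cells were long-term hematopoietic stem cells (LT-HSCs), the rare bone marrow cells that can rebuild all blood lineages for life, from female C57BL/6 mice. All donors were older than 24 months, and the sort took cells lacking lineage markers and CD48 and carrying Sca-1, c-Kit and CD150. Before transplantation, 4 Selp low and 4 Selp high libraries were made from old mice by splitting the LT-HSCs on surface P-selectin. This adhesion receptor is encoded by Selp. The sample titles give replicate numbers only and name no mouse. Same-numbered libraries before transplantation were taken as the same mouse because their deviations from group means correlated. A shared preparation cannot be told apart from a shared mouse, so mouse numbers below are replicate numbers. After transplantation, 3 Selp low-derived and 3 Selp high-derived libraries were made from CD45.2+ donor LT-HSCs sorted without regard to P-selectin, 16 weeks after lethally irradiated recipients aged 10 to 16 weeks had received 1000 cells of either sort. Each RNA preparation came from 5000 cells. Every group therefore consists of cells of old donors, and the groups after transplantation had also divided in a young, irradiated host, so that transplantation, host and time cannot be told apart. The labels do not say whether each of the 6 later libraries came from its own recipient, so the p-values measure the spread between these libraries, which may in part be technical.

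Complex I (NADH dehydrogenase) and complex II (succinate dehydrogenase) feed electrons from fuel oxidation into ubiquinone. Complex III passes them to cytochrome c, complex IV (cytochrome c oxidase) passes them on to oxygen, and complex V (ATP synthase) uses the proton gradient built by complexes I, III and IV to make ATP. Complex II is built from nuclear genes alone and also works in the tricarboxylic acid cycle. The other complexes join nuclear subunits to subunits encoded by mitochondrial DNA. The mitochondrial genes are read as long polycistronic transcripts that are cut into separate RNAs, and nearly all lie on the heavy strand. Quiescent LT-HSCs are known for leaning on glycolysis and keeping respiration low, and for raising respiration when they divide and differentiate.

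Reads assigned to genes numbered 22374794 to 38216775 per library, and the members took 1.51 to 2.43% of them. Levels are given as CPM, counts scaled to library size with edgeR's TMM factors. RNA of Selp itself lay between 476 and 669 CPM in Selp low cells and between 615 and 764 in Selp high cells, so these groups overlap. It was between 243 and 289 where the input was Selp low, and between 283 and 314 where it was Selp high. The 10 LT-HSC markers examined (among them Kit, Procr, Mecom and Hlf) were all detected. They summed to 4365 to 5305 CPM before and 3077 to 4253 after transplantation, without overlap. Selp low replicate 4, Selp high replicate 4 and Selp low-derived replicate 2 stood apart, with 14385, 19197 and 12102 CPM summed over 11 neutrophil markers against 504 to 6071 in the other 11 libraries.

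Near-identical copies in the nuclear genome bear on which mitochondrial members can be counted. A stretch of mouse chromosome 1, on the minus strand, is annotated with unprocessed pseudogenes that copy a run of mitochondrial genes from mt-Co1 to mt-Nd4, and the count files keep reads that align in several places apart from the gene counts. The alignments below, from GENCODE transcripts of GRCm38, show how close the copies are. The first 60 bases of mt-Co2, the second subunit of cytochrome c oxidase (chrM:7013-7072, plus strand), and of its copy Gm28661 (chr1:24615506-24615565, minus strand) are shown because nothing differs.
mt-Co2: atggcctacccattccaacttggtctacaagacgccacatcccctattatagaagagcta
Gm28661: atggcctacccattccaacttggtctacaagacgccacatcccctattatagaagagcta
All 681 aligned bases of this pair were identical, as were 783 of mt-Co3 and Gm28437, 678 of mt-Atp6 and Gm10925, 294 of mt-Nd4l and Gm10222 and 876 of mt-Nd4 and Gm28439. The first 60 bases of mt-Nd3 (chrM:9459-9518, plus) and Gm28438 (chr1:24613060-24613119, minus) hold the only substitution in 345 aligned bases, T3C, in capitals and counted from the start of mt-Nd3.
mt-Nd3: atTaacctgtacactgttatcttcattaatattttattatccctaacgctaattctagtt
Gm28438: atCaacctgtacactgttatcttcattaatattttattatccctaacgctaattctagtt
For mt-Co1, the copy Gm29216 starts inside the gene, and the window where it begins (chrM:6381-6440, plus, and chr1:24616138-24616197, minus) holds all 6 substitutions of the 492 aligned bases, in capitals.
mt-Co1: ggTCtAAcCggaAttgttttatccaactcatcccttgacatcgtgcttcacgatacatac
Gm29216: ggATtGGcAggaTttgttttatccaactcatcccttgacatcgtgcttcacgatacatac

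Most of the genes with close copies had few or no reads. The share of 50-base words that a gene has in common with another annotated transcript was 100% for mt-Co2, 99.86% for mt-Co3, 99.53% for mt-Atp6, 98.79% for mt-Nd4l and 97.99% for mt-Nd3. It was 62.2% for mt-Nd4, 51.1% for mt-Co1, 8.19% for mt-Nd2 and 7.61% for mt-Nd5, and 0% for mt-Nd1, mt-Nd6, mt-Cytb and mt-Atp8. Reads per library were 0 to 2 for mt-Co2, 0 to 4 for mt-Co3, 0 to 5 for mt-Atp6, 0 to 1 for mt-Nd4l and 8 to 279 for mt-Nd3. mt-Atp8, a short gene that lies between mt-Co2 and mt-Atp6 and overlaps the latter, had 0 or 1. Only annotated transcripts were searched, so whether the chromosome 1 stretch also holds an unannotated copy of mt-Atp8 was not tested. The copies themselves were assigned 50 to 363 reads for Gm28661, 114 to 802 for Gm28437 and 23 to 373 for Gm10925, each highest in Selp high replicate 4. Levels of mt-Co2, mt-Co3, mt-Atp6, mt-Atp8 and mt-Nd4l are therefore not given, those of mt-Nd3, mt-Nd4 and mt-Co1 may be understated, and no read can be traced to the mitochondrial gene or its copy where they are identical.

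In all, 90 members had enough reads to be tested, 82 nuclear and 8 mitochondrially encoded. Besides the 5 mitochondrial genes just named, 4 members were not tested. These are the second Atp5o identifier and Cox8c with 0 reads in every library, Cox8b with at most 1, and Ndufa4l2, a paralog of Ndufa4, with 19 reads in Selp low replicate 3, 7 in Selp high replicate 4 and at most 1 elsewhere.

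Per kb of exon, the scale on which levels of different genes can be compared, the most abundant members were mt-Co1, with a mean of 1706 CPM per kb (1264 to 2518 over the 14 libraries), and mt-Cytb, the cytochrome b of complex III, with 1498 (963 to 2514). Atp5b, the catalytic beta subunit of ATP synthase, followed with 1018 (867 to 1361) and led the nuclear members. The ranges of these neighbours overlap. After them came mt-Nd1 at 612, Cox4i1 at 508, Atp5a1 at 472, Cox8a at 434 and Atp5g3 at 398 CPM per kb. Among nuclear members the median was 207 CPM per kb in complex II, 190 in complex III, 126 in complex V, 84.7 in complex I and 74.8 in complex IV. The complex IV median is lowered by the alternative forms Cox6b2 (19.4), Cox4i2 (5.18), Cox7b2 (0.896), Cox7a1 (0.789) and Cox6a2 (0.578). These medians therefore do not rank the main subunits of the complexes. Sdha, the flavoprotein of succinate dehydrogenase (274 CPM per kb), and Uqcrc1, a core protein of complex III (368), led complexes II and III. Ndufa4 (315), a complex IV subunit, led the nuclear members grouped with complex I by name.

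Several subunits have alternative forms, and these differed in level. Cox4i1, the widely expressed form of COX4, had a mean of 508 CPM per kb and Cox4i2, the form known from lung and low oxygen, 5.18. Cox6a1 had 275 against 0.578 for the heart and muscle form Cox6a2, and Cox6b1 had 299 against 19.4 for Cox6b2, known from testis. The widely expressed form thus supplied 99.0%, 99.8% and 92.8% of the reads of these pairs. Cox7a2 had 134 and Cox7a2l 74.6, while the heart and muscle form Cox7a1 had 0.789. By reads Cox7a2 and Cox7a2l were close, with 50.8% and 49.0% of the set. Of the 3 genes for the c-ring of ATP synthase, which encode the same mature protein, Atp5g3 had 398 CPM per kb, Atp5g1 16.5 and Atp5g2 9.48. By reads Atp5g3 had 76.6% and Atp5g1 21.5% of this set, and the low level of Atp5g1 per kb rests on an annotated exon length of 4912 bases. Per kb of exon, the leading form within each of these sets was above the lesser ones in all 14 libraries, as the plot of paired forms shows.

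**Figure D1:**
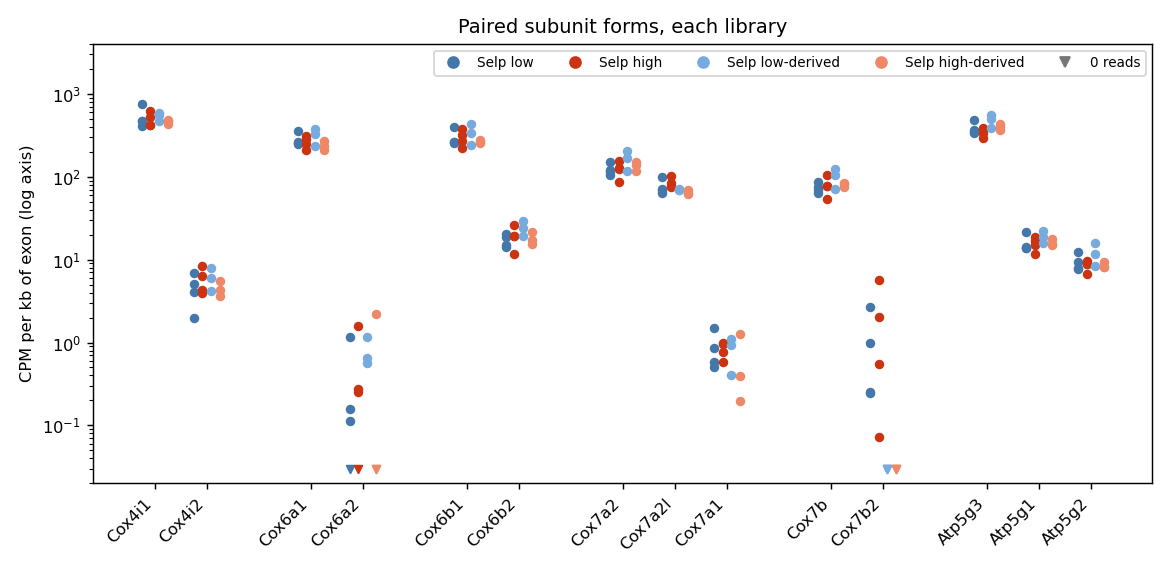
Paired subunit forms, as CPM per kb of exon on a log axis, 1 point per library coloured by group, with triangles for libraries at 0 reads. Cox4i1, Cox6a1, Cox6b1, Cox7a2, Cox7b and Atp5g3 lie above their partners in every library, and Cox7b2 has reads only before transplantation.

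Promoters of the nuclear members were looked at for motifs that the choice of genes did not use. RefSeq promoters of GRCm38.p6 (250 bases before to 50 after the start site) were found for 69 of 85 nuclear symbols and searched on both strands. The NRF1 motif, searched as GCGCATGCG, was present in 8 of 69 (11.6%) against 1.95% of all 27025 genes with a promoter, and AAGATGGCG, read by YY1, in 7 (10.1%) against 1.64%. ACTTCCGG, read by GABPA and other ETS factors, was present in 5 (7.25%) against 4.31%, and TATAAA in 7 (10.1%) against 15.7%. The 6 members with an NRF1 match before the start site are shown with the match, on either strand, in capitals. They are Atp5g2 (chr15:102671070-102671099, minus), Atp5k (chr5:108434430-108434459, minus), Atp5l (chr9:44920963-44920992, minus), Cox6a1 (chr5:115349101-115349130, minus), Ndufa11 (chr17:56717692-56717721, plus) and Ndufa8 (chr2:36049339-36049368, minus).
Atp5g2: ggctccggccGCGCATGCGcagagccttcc
Atp5k: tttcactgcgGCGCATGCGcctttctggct
Atp5l: aaccaataaCGCATGCGCatttcccccact
Cox6a1: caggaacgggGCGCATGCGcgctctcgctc
Ndufa11: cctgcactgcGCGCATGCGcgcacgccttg
Ndufa8: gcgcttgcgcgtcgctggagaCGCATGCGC
None of the members called below held an NRF1, YY1 or GABPA match of these letters in the promoters found.

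After transplantation, 5 nuclear subunits were higher and 1 was lower than before, and the rest did not pass the test. Those that rose were Sdhb and Sdhd of succinate dehydrogenase, Ndufab1 and Ndufb4 of complex I and Atp5f1 of ATP synthase, each by 0.25 to 0.38 on the log2 scale. The one that fell was Cox7b2, a form of the complex IV subunit COX7B known from testis, which lost all of its reads. Cox7b2 passed the filter on low counts through the earlier libraries alone, so its call adds no support beyond the read counts. No mitochondrially encoded subunit passed with all 14 libraries. In edgeR's quasi-likelihood test of later against earlier libraries, averaging the Selp groups of each stage, with Benjamini-Hochberg adjusted p under 0.05, 6 of 90 members were called, against 27.4% of the 16878 genes tested. The 5 higher calls compare with 12.9% of all genes and the 1 lower call with 14.6%. The share of members called was thus below the background in each direction. The test counted the 8 earlier libraries as independent, though they were taken as coming from 4 mice. SE and p-values between stages may therefore be too small.

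Sdhd, the small membrane anchor of complex II (chr9:50596357-50603812, minus strand), had 289, 244, 271 and 246 CPM in Selp low, 266, 221, 265 and 289 in Selp high, 366, 292, 294 in Selp low-derived and 302, 306, 313 in Selp high-derived libraries. All 6 libraries after transplantation lay above all 8 before it, a pattern shown by 4.28% of genes tested, and no other member had it. The change was 0.26 ± 0.08 (SE, edgeR adjusted p = 0.0281), and 0.30 with an adjusted p of 0.0195 without the 3 libraries that stood apart.

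Sdhb, the iron-sulfur subunit of complex II (chr4:140961203-140979193, plus), had 233, 198, 199 and 169 CPM in Selp low, 202, 173, 176 and 202 in Selp high, 266, 242, 208 in Selp low-derived and 216, 217, 235 in Selp high-derived libraries. Selp low replicate 1 was the only earlier library inside the later range. The change was 0.25 ± 0.08 (edgeR adjusted p = 0.0409), and it was 0.22 with an adjusted p of 0.0693 without those 3 libraries. The remaining subunits of this complex did not pass. Sdha was at 808 ± 56.2 CPM (SD, n = 8 libraries) before and 778 ± 76.8 (n = 6 libraries) after, with a change of -0.06 (95% interval -0.22 to 0.10). Sdhc, the other membrane anchor, had 116 ± 10.1 before and 108 ± 10.0 after, with a change of -0.10 (-0.28 to 0.07).

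Atp5f1, the peripheral stalk subunit b of ATP synthase (chr3:105942698-105960099, minus), had 197, 205, 245 and 259 CPM in Selp low and 262, 213, 274 and 317 in Selp high libraries. It had 346, 291 and 292 in Selp low-derived and 309, 304 and 297 in Selp high-derived libraries. Selp high replicate 4 was the only earlier library above 291. The change was 0.32 ± 0.10 (edgeR adjusted p = 0.0225) and 0.42 without the 3 libraries that stood apart (adjusted p = 0.00452). In complex V as a whole, 16 of 17 tested nuclear members had a higher value after transplantation, with a median change of 0.18, and 1 passed. Atp5c1, the gamma subunit, changed by 0.24 ± 0.10 (adjusted p = 0.0798), Atp5g3 by 0.25 ± 0.10 (0.0962) and Atp5b by 0.20 ± 0.09 (0.113). Without the 3 libraries Atp5b was called, at 0.24 with an edgeR adjusted p of 0.0458.

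Ndufab1, the mitochondrial acyl carrier protein, which also sits in complex I (chr7:122085403-122101886, minus), had 23.7, 24.0, 25.6 and 26.5 CPM in Selp low, 28.4, 20.8, 27.9 and 32.7 in Selp high, 36.1, 29.9, 31.4 in Selp low-derived and 33.4, 31.7, 32.1 in Selp high-derived libraries. Here too 1 earlier library, Selp high replicate 4, reached the later range. The change was 0.31 ± 0.10 (edgeR adjusted p = 0.0347), and 0.40 with an adjusted p of 0.0135 without the 3 libraries that stood apart. Ndufb4, an accessory subunit of the membrane arm (chr16:37647170-37654453, minus), had 21.3, 14.04, 17.2 and 18.7 CPM in Selp low, 20.1, 14.5, 19.8 and 16.9 in Selp high, 23.2, 28.1, 18.2 in Selp low-derived and 25.8, 21.3, 22.9 in Selp high-derived libraries. Selp low-derived replicate 3 fell within the earlier range. The change was 0.38 ± 0.13 (adjusted p = 0.0428) and 0.30 with an adjusted p of 0.135 without the 3 libraries that stood apart. Narrowly missing the threshold in complex I were Ndufc1 (0.35 ± 0.13, edgeR adjusted p = 0.0526) and Ndufc2 (0.30 ± 0.11, 0.0583). Ndufa4, grouped with complex I by name alone, also narrowly missed it (0.31 ± 0.12, 0.0631).

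These 5 calls were sensitive to single libraries. Leaving out Selp low-derived replicate 1 or any 1 of the 3 Selp high-derived libraries left 0 nuclear or mitochondrial members called higher, where 9.59 to 10.1% of all genes tested were. Leaving out Selp low-derived replicate 3 gave 10 of 90, where 10.4% of all genes tested were called higher. Over the 14 fits that each left out 1 library, Atp5f1 was called in 10, Sdhd in 8, Ndufab1 and Ndufb4 in 5 and Sdhb in 4, and each change stayed positive. In bulk RNA, more cells of a kind and more RNA per cell cannot be told apart. Genes of G2 and M phase moved with the stage, with 20 of 20 called higher and a median change of 2.18, and 19 of 19 immediate early genes were called lower with a median of -3.54. Markers of cell identity moved with the stage as well. Of the 10 LT-HSC markers 7 were called lower and 0 higher (median -0.50), among them Slamf1, which encodes CD150 (-1.05 ± 0.10, edgeR adjusted p = 6.9e-06). Of 4 markers of CD48+ progenitors, Cd34 (1.03 ± 0.14, adjusted p = 1.1e-04) and Flt3 (0.85 ± 0.23, 0.014) were called higher. Cd48 itself (0.58 ± 0.54, edgeR adjusted p = 0.46) and Mpo (-0.31 ± 0.58, 0.73) were not called. The 4 summed to 125 to 696 CPM before and 369 to 570 after. The part of these genes in the changes of the subunits was not tested.

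**Figure D2:**
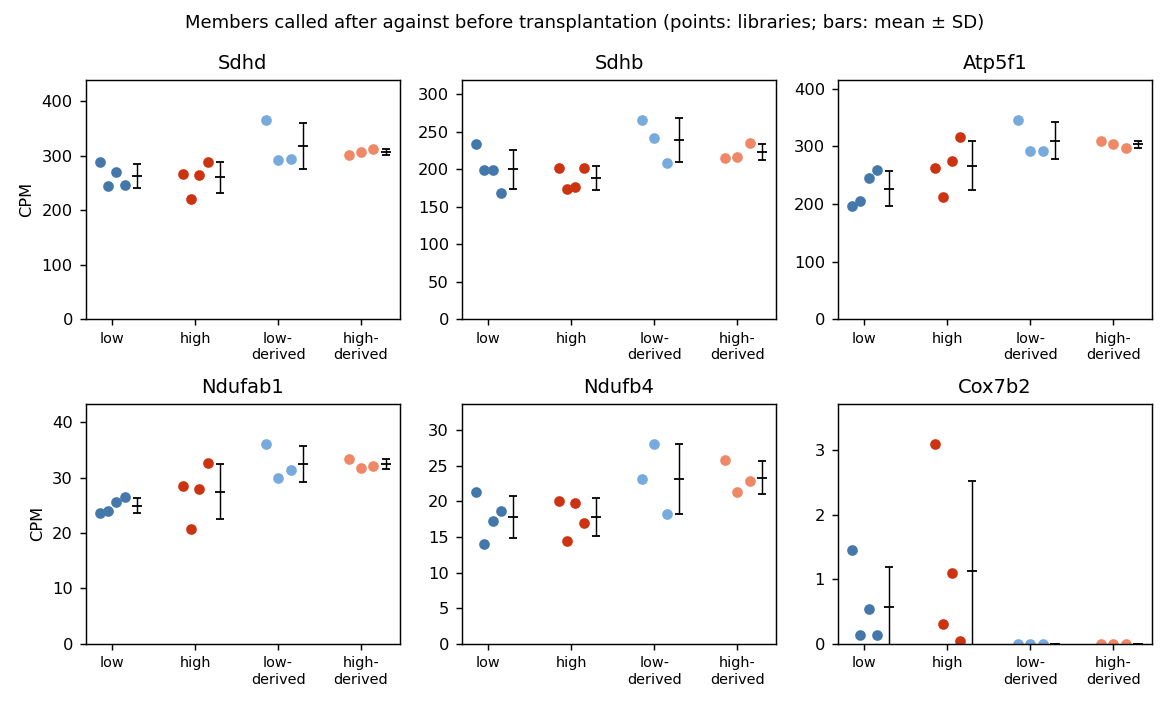
CPM of the 6 members called after against before transplantation, 1 point per library in 4 groups, with the mean and SD of each group beside the points. Sdhd lies at 292 to 366 after and 221 to 289 before transplantation, Sdhb, Atp5f1, Ndufab1 and Ndufb4 overlap between stages, and Cox7b2 is at 0 in all 6 later libraries.

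Cox7b2 (chr5:71442824-71548205, minus) was a low transcript that was present before transplantation and not detected after. It had 43, 5, 14 and 4 reads in Selp low and 81, 8, 32 and 1 in Selp high libraries, and 0 in each of the 6 later libraries. The reads were unevenly spread over mice, with 124 of 188 in mouse 1, 46 in mouse 3, 13 in mouse 2 and 5 in mouse 4. The pooled level before was 0.820 CPM, and 3 reads over the 6 later libraries, the limit that a count of 0 allows, would be 0.0188 CPM, so the level was at least 43.8-fold lower after transplantation. Selp high replicate 1 alone held 81 of the reads, and without it the pooled level before was 0.527 CPM and the bound 28.1-fold. These limits cover counting error only. It passed the filter on low counts through the earlier libraries alone, so the test adds no support beyond the read counts. The same holds for its edgeR adjusted p of 0.0052 and for its call in each of the 14 fits that left out 1 library. All 6 later libraries lay below all 8 earlier ones, a pattern shown by 5.47% of genes tested. At the closest this was 0 reads against 1, in Selp high replicate 4. Its partner Cox7b had 53.6 to 104 CPM before and 71.0 to 126 after, with a change of 0.25 ± 0.15 (adjusted p = 0.222). The 100 bases before the RefSeq start site of Cox7b2 (chr5:71548206-71548305, minus) are shown because it is the member with the largest change, and they hold none of the motifs searched.
Cox7b2: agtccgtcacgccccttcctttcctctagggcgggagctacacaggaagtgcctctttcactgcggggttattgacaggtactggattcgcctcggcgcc

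Across the machinery, the shift between stages was small. The median change of the 82 nuclear members was 0.13, with 62 higher and 20 lower, against a median of -0.01 over all genes tested. Without the 3 libraries that stood apart it was 0.11, with 57 of 82 higher. By complex the medians were 0.14 in complex I (27 of 37 higher), 0.10 in complex II (2 of 4), 0.09 in complex III (5 of 8), 0.07 in complex IV (12 of 16) and 0.18 in complex V (16 of 17). Without the 3 libraries they were 0.15, 0.09, 0.07, 0.04 and 0.13, with 25, 2, 5, 9 and 16 members higher. The median size of change without regard to sign was 0.15 for nuclear members and 0.30 for all genes. The 95% interval lay within a 1.5-fold change in either direction for 69 of 82 nuclear members (84.1%), against 40.1% of all genes tested, and for 3 of 8 mitochondrial ones. This share depends on interval width as well as on size of change. The median SE was 0.12 for nuclear members, 0.26 for mitochondrial ones and 0.17 for all genes tested, which were not matched for level. Members of complex III and complex IV other than Cox7b2 had no call. Uqcrc1 changed by 0.13 ± 0.09 (edgeR adjusted p = 0.322), Cox4i1 by -0.04 ± 0.13 (0.858), Cox6c by 0.28 ± 0.12 (0.100) and Cox7a2l by -0.24 ± 0.11 (0.109).

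**Figure D3:**
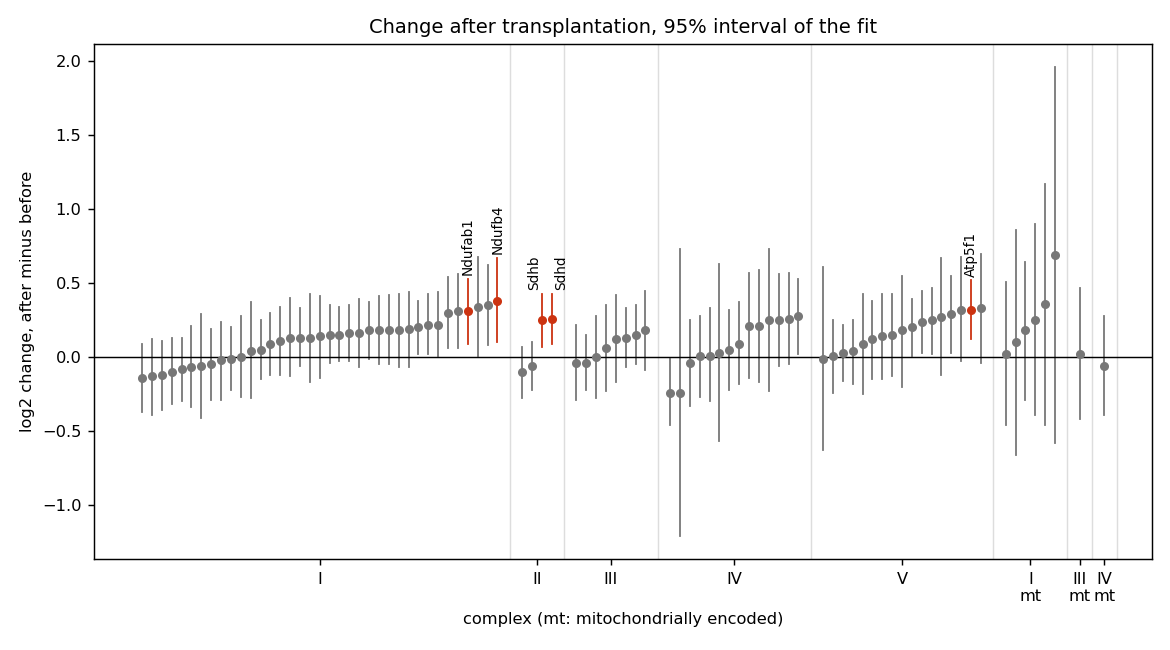
Change of each tested member after minus before transplantation on the log2 scale, with the 95% interval of the edgeR fit, ordered within complexes, and called members in red. From the first to the ninth decile, nuclear members lie between -0.08 and 0.31 with a median of 0.13, and mitochondrially encoded ones have wider intervals. Cox7b2 (0 reads after) and Cox6a2 (interval -1.44 to 3.06) are not drawn.

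The mitochondrially encoded members showed no call for stage with all 14 libraries and differed more among libraries than the nuclear ones. Their median change after minus before was 0.14, but -0.11 when Selp low-derived replicate 2 was left out 0.54 when both replicate 4 libraries were and 0.31 without all 3. Without both replicate 4 libraries 3 of these 8 genes were called higher after transplantation, where 15.3% of all genes tested were. They were mt-Nd1 (0.70, edgeR adjusted p = 0.0236), mt-Nd2 (0.66, 0.0497) and mt-Nd3 (1.89, 0.00254). Of these, mt-Nd3 was also called without all 3 libraries (1.76, edgeR adjusted p = 0.00572) and without Selp low replicate 4 alone (1.40, 0.0444), against a change of 0.69 (0.415) with all 14. The ratio of the highest to the lowest library was 1.99 for mt-Co1, 2.61 for mt-Cytb, 3.07 for mt-Nd4, 3.40 for mt-Nd5, 4.50 for mt-Nd1, 6.68 for mt-Nd2, 7.53 for mt-Nd6 and 41 for mt-Nd3. The median of this ratio was 1.76 over 80 nuclear members with reads in every library. Selp high replicate 4 was highest for 5 of the 8 mitochondrial genes, Selp low-derived replicate 2 for 2 and Selp high replicate 1 for mt-Co1.

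mt-Co1, the core of cytochrome c oxidase, had 2864, 2032, 1953 and 2804 CPM in Selp low, 3890, 2050, 2399 and 3487 in Selp high, 2141, 3449, 2634 in Selp low-derived and 2480, 2375, 2353 in Selp high-derived libraries. mt-Cytb had 1591, 1148, 1180 and 1922 in Selp low, 2016, 1102, 1764 and 2876 in Selp high, 1391, 2871, 1709 in Selp low-derived and 1534, 1459, 1421 in Selp high-derived libraries. In these genes the groups overlap, and the Selp high-derived libraries were the closest to each other.

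mt-Nd1, a membrane core subunit of complex I without an annotated copy, had 275, 387, 267 and 759 CPM in Selp low, 496, 344, 651 and 1203 in Selp high, 443, 952, 576 in Selp low-derived and 755, 641, 451 in Selp high-derived libraries. mt-Nd2, its neighbour, had 89.9, 101, 78.5 and 252 in Selp low, 170, 112, 240 and 524 in Selp high, 143, 386, 198 in Selp low-derived and 205, 149, 130 in Selp high-derived libraries. Both were highest in Selp high replicate 4, and Selp low replicate 4 was the highest of its group. The level of mt-Nd2 relative to mt-Co1 ran from 0.0314 in Selp low replicate 1 to 0.150 in Selp high replicate 4, so the mitochondrial genes did not keep the same proportions from library to library.

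mt-Nd4 had 250, 178, 184 and 306 CPM in Selp low, 284, 172, 266 and 527 in Selp high, 274, 506, 272 in Selp low-derived and 229, 197, 207 in Selp high-derived libraries. mt-Nd5 had 374, 268, 284 and 482 in Selp low, 443, 302, 436 and 761 in Selp high, 425, 911, 466 in Selp low-derived and 368, 356, 369 in Selp high-derived libraries. For both genes, which encode proton-pumping subunits of complex I, the 3 Selp high-derived libraries lay below the 3 Selp low-derived ones. mt-Nd6, the only protein gene on the opposite strand, had 20.7, 21.6, 15.1 and 48.5 CPM in Selp low, 25.03, 20.2, 46.1 and 86.4 in Selp high, 33.2, 114, 34.3 in Selp low-derived and 38.8, 32.0, 24.7 in Selp high-derived libraries. mt-Nd3 had 0.270, 1.203, 0.848 and 6.02 CPM in Selp low, 2.83, 1.121, 2.79 and 11.04 in Selp high, 2.96, 6.49, 5.19 in Selp low-derived and 6.75, 5.12, 2.96 in Selp high-derived libraries. The lowest values of both genes were in Selp low replicates 1 to 3 and Selp high replicate 2. For mt-Nd6, which overlaps mt-Nd5, counts made by strand were 1.863 times the unstranded count, so its level is uncertain.

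**Figure D4:**
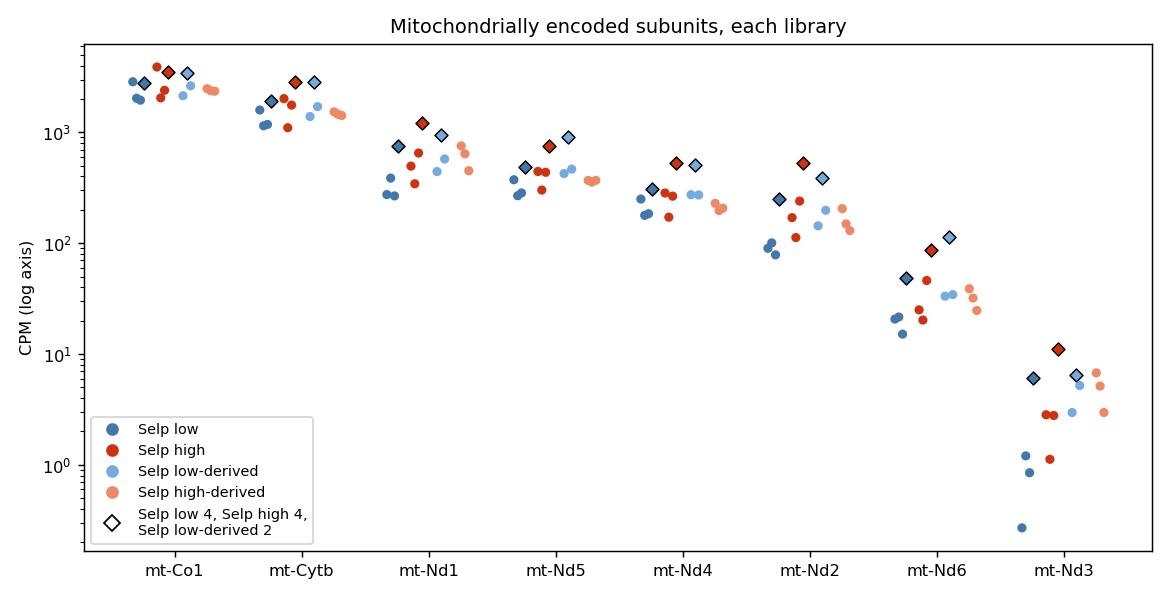
CPM of the 8 tested mitochondrially encoded members on a log axis, 1 point per library and replicates in order from left to right within each group. Diamonds mark Selp low replicate 4, Selp high replicate 4 and Selp low-derived replicate 2, which lie highest within their own groups for all genes except mt-Co1.

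Before transplantation, no subunit differed between Selp high and Selp low cells by the test. All 8 mitochondrial members had higher mean values in Selp high cells, with a median of 0.57, while the 82 nuclear members were centred on -0.02 (35 higher, 47 lower). No gene of 16878 was called by edgeR (0 genes, 0%), though 863 had a p under 0.05 before adjustment, 1 of them a member, and DESeq2 called 2 genes higher and 9 lower, none of them a member. The member was Ndufv2, an iron-sulfur core subunit of complex I, at 165, 147, 172 and 170 CPM in Selp low and 217, 143, 200 and 238 in Selp high libraries. Its difference was 0.28 ± 0.13 (edgeR adjusted p = 0.957), with the higher value on the Selp high side in 3 of 4 mice. The next members were mt-Nd2 (1.01 ± 0.47, adjusted p = 0.957) and Atp5f1 (0.23 ± 0.13, 0.957).

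Same-numbered libraries before transplantation were taken as the same mouse, though the labels name none, so the mitochondrial difference was read within replicate numbers. Of the 8 genes, 3 had their higher value in the Selp high library of 4 of 4 mice, and 5 in that of 3 of 4. In mouse 1 the log2 ratio of Selp high to Selp low ran from 0.18 (mt-Nd4) to 3.39 (mt-Nd3), in mouse 3 from 0.30 (mt-Co1) to 1.72 (mt-Nd3) and in mouse 4 from 0.31 (mt-Co1) to 1.06 (mt-Nd2). In mouse 2 it ran from -0.17 (mt-Nd1) to 0.17 (mt-Nd5). With the replicate number as a block, 0 members were called, and the adjusted p of mt-Nd2 was 0.164. The median of 0.57 fell to 0.18 when Selp high replicate 4 was left out, was 0.89 when Selp low replicate 4 was, and 0.51 when both were. Neutrophil marker sums were 2503, 4100, 4517 and 14385 CPM in Selp low and 730, 6071, 4914 and 19197 in Selp high replicates 1 to 4, and their part in the mitochondrial difference was not tested. No member had Selp high and Selp low libraries without overlap, a pattern shown by 3.08% of genes tested.

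After transplantation, no subunit differed between Selp high-derived and Selp low-derived cells by the test either. Most values were lower where the input was Selp high, with 69 of 82 nuclear members lower (median -0.19) and 7 of 8 mitochondrial ones (median -0.51), against a median of 0.01 over all genes. Again edgeR called no gene of 16878 (0 genes, 0%), and 765 had a p under 0.05 before adjustment. DESeq2 called 3 genes higher (0.0178%) and 22 lower (0.13%), none of them a member. Complex IV had the lowest nuclear median, -0.32, with 15 of 16 tested members lower, followed by -0.24 in complex V, -0.18 in complex III, -0.16 in complex I and -0.06 in complex II. The smallest p belonged to mt-Nd5 (-0.72 ± 0.33, edgeR adjusted p = 0.979). It was followed by mt-Nd4 (-0.73 ± 0.34, adjusted p = 0.979) and Cox6a1, a small complex IV subunit (-0.41 ± 0.19, 0.979).

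Cox6a1 had 190, 217 and 135 CPM in Selp low-derived and 133, 121 and 153 in Selp high-derived libraries, with Selp low-derived replicate 2 the highest. Groups without overlap occurred in 3 members, all lower in Selp high-derived cells, against 10.3% of genes tested. They were mt-Nd4, mt-Nd5 and Cox7a2l, which had 80.3, 81.3 and 78.8 CPM in Selp low-derived and 78.7, 71.5 and 73.8 in Selp high-derived libraries. For Cox7a2l the difference was -0.10 ± 0.16 (edgeR adjusted p = 0.985). Without Selp low-derived replicate 2 the mitochondrial median was -0.08 and the nuclear one -0.10, with mt-Nd5 at -0.29 and mt-Nd4 at -0.37. That library also had the highest neutrophil marker sum of its stage, 12102 CPM, and the part of those markers in the result was not tested.

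The difference between stages in the Selp contrast was negative for 8 of 8 mitochondrial and 68 of 82 nuclear members, and none was called by edgeR (0 genes of 16878, 0%, and 874 with a p under 0.05 before adjustment). The median difference was -1.12 for mitochondrial and -0.19 for nuclear members. mt-Nd5 had the smallest p (-1.19 ± 0.44, edgeR adjusted p = 0.879), then mt-Nd4 (-1.17 ± 0.46, 0.879) and Ndufc1 (-0.57 ± 0.25, 0.879). Without both replicate 4 libraries and Selp low-derived replicate 2 the medians were -0.62 and 0.03, mt-Nd5 was at -0.64 and mt-Nd4 at -0.61.

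The nuclear members also differed from library to library, and in some libraries the shorter members stood further from the mean than the longer ones. Selp low-derived replicate 2 was the highest library for 32 nuclear members, Selp low-derived replicate 1 for 23 and Selp low replicate 1 for 17, while Selp high replicate 2 was the lowest for 49. Relative to the mean of 14 libraries, the 43 tested nuclear members with under 1000 bases of exon stood at 0.45 in Selp low-derived replicate 2, 0.34 in Selp low replicate 1 and -0.37 in Selp high replicate 2. The 39 longer members stood at 0.10, 0.11 and -0.27 in the same libraries. In others the classes were alike, at 0.27 and 0.29 in Selp low-derived replicate 1, -0.14 and -0.18 in Selp low replicate 4 and 0.04 and 0.05 in Selp high replicate 1. The 546 other protein-coding genes under 1000 bases stood at 0.35, 0.33 and -0.17 in the first 3 libraries named, and 80 ribosomal protein genes at 0.73, 0.58 and -0.16. In Selp low-derived replicate 1 these other short genes stood at 0.05, and in Selp high-derived replicate 3 at -0.09 against 0.09 for the shorter members. In the comparison after transplantation the median was -0.25 for the shorter members, -0.12 for the longer ones, -0.21 for other short genes and -0.50 for ribosomal protein genes. Between stages the order differed, with 0.09 for the shorter members, 0.15 for the longer ones, -0.07 for other short genes and -0.08 for ribosomal protein genes. The part of transcript length in the differences of the subunits was not tested.

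**Figure D5:**
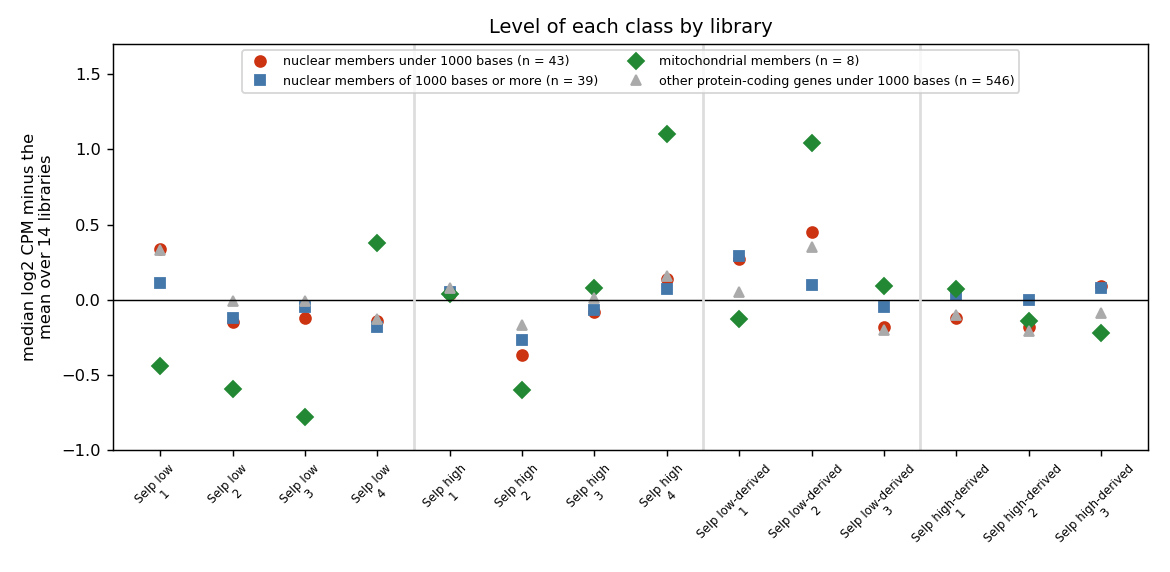
Median deviation of each class from its mean over the 14 libraries, on the log2 scale, by library. Short nuclear members and other short protein-coding genes lie at 0.45 and 0.35 in Selp low-derived replicate 2 but at 0.27 and 0.05 in Selp low-derived replicate 1, and mitochondrial members reach 1.10 in Selp high replicate 4 and 1.04 in Selp low-derived replicate 2.

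Genes that build, feed and regulate the complexes were taken as lists. After against before transplantation, 4 of 45 tested assembly factors were called higher and 1 lower (median 0.08). Timmdc1, an assembly factor of complex I, went from 6.78 to 10.2 CPM before to 9.32 to 15.9 after (0.64 ± 0.13, edgeR adjusted p = 0.00247), and Cmc2, which helps build complex IV, from 16.4 to 24.1 before to 27.0 to 43.6 after without overlap (0.80 ± 0.13, 4.3e-04). Of 21 carriers and enzymes around cytochrome c and ubiquinone, 5 were higher and 1 was lower. The lower one, Coq8a, which is needed for making ubiquinone, went from 577 to 1006 CPM before to 259 to 350 after without overlap (-1.30 ± 0.14, adjusted p = 2.1e-05), and Coq3, a methyltransferase of the same pathway, rose by 0.42 ± 0.11 (0.0125).

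In the tricarboxylic acid cycle 6 of 18 genes were called higher and 0 lower, with a median of 0.17. Idh3a, a subunit of the NAD-dependent isocitrate dehydrogenase, went from 154 to 205 CPM before to 217 to 281 after without overlap (0.43 ± 0.08, edgeR adjusted p = 0.00178), and Idh2 rose by 0.47 ± 0.11 (0.00436). The 4 subunits of succinate dehydrogenase also belong to this cycle, and of them Sdhb and Sdhd were called higher while Sdha (-0.06) and Sdhc (-0.10) were not called. In glycolysis 0 of 22 identifiers were called higher and 8 lower, with 10 values higher, 12 lower and a median of -0.08. The lists were not tested against each other. Slc2a3, a glucose transporter, went from 436 to 636 CPM to 216 to 287 (-1.01 ± 0.11, adjusted p = 1.8e-05) and Ldhb, a lactate dehydrogenase, from 181 to 315 to 143 to 165 (-0.71 ± 0.11, 2.9e-04).

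Among genes that express mitochondrial DNA, 3 of 28 were higher and 2 lower. Lrpprc, which stabilises mitochondrial mRNAs, rose by 0.49 ± 0.12 (edgeR adjusted p = 0.00581) and Ssbp1, the mitochondrial single-strand DNA-binding protein, by 0.29 ± 0.08 (0.0174). Of 17 tested nuclear regulators, 6 were higher and 3 lower. Ppargc1b, a coactivator of mitochondrial biogenesis, went from 8.64 to 14.5 CPM before to 13.7 to 24.0 after (0.89 ± 0.15, 6.4e-04), and Nfe2l2, the regulator of the antioxidant response, from 200 to 253 to 147 to 184 (-0.44 ± 0.08, 8.5e-04). Their backgrounds are the 12.9% and 14.6% of all genes called higher and lower. Neither Selp comparison called any gene of these lists.

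Some members share sequence or position with other genes and their levels are uncertain. Atp5l, the g subunit of ATP synthase, shared 84.9% of its 50-base words with 14 other genes and had 12 to 29 reads per library, the lowest level per kb of complex V. Among tested members, counts made by strand exceeded the unstranded count most for Atp5l, Cox5a, Ndufb6, Ndufb2 and mt-Nd6, each of which overlaps the exons of another annotated gene. This also holds for a pair of the members called higher after transplantation, Ndufab1, which overlaps Gm44986 (1.449 times the unstranded count), and Atp5f1, which overlaps Wdr77 (1.122 times). In addition, Ndufb4 shared 36.98% of its 50-base words with the pseudogene Ndufb4c, Atp5f1 23.15% with Gm12231 and Ndufab1 10.76% with Gm4459. mt-Nd6 lies opposite the end of mt-Nd5, and Ndufb2, at 2.48 CPM per kb the lowest tested member of complex I, overlaps Braf.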

How the data were processed

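RNA was sequenced in 14 LT-HSC libraries, each made by template switching and tagmentation from polyadenylated RNA, per the labels' protocols. The deposited values are unnormalized counts of reads per gene, and the authors' tools were STAR 2.7.0d, Picard 2.23.0 and FastQC 0.11.9 with the build GRCm38 (per the submitters' processing notes). No source used here names the annotation release. Every one of the 55450 versioned identifiers matched GENCODE M21, which gave symbols, positions and exon lengths. Unstranded counts were used, since sums by strand had a ratio of 0.989 to 0.999, so a gene and an antisense partner cannot be told apart. Unmapped (3.35 to 5.06% of reads), multimapping (9.93 to 13.4%), unassigned (3.37 to 5.13%) and ambiguous reads (4.20 to 4.79%) stayed out of library sizes and tests.

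Counts were fitted in edgeR 4.0.16 (R 4.3.3) with TMM factors (0.963 to 1.042), a minimum count of 10 (16878 genes kept), 4 group means over 14 libraries, and quasi-likelihood tests with Benjamini-Hochberg adjustment over all genes tested. A gene was called at an adjusted p under 0.05. CPM are TMM-scaled, intervals use the 95% t quantile of the fit, and the test was checked on simulated data. DESeq2 1.42.0, limma voom 3.58.1, other size factors, no filter, a replicate block and fits that left out libraries were alternatives. Members, lists and tests were chosen with earlier results of these data known.

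Genes named are all mitochondrially encoded members, up to 4 nuclear members of each complex with the smallest p between stages and the one highest per kb, up to 3 members with the smallest p in each Selp comparison, the complex II subunits, the paired forms, and up to 2 genes of each pathway list. Atp5a1, Atp5l, Cox5a, Ndufb2, Ndufb6 and the members named with sequences were added after their values were seen. Deviations from group means correlated across genes with r of 0.29 to 0.53 between same-numbered libraries before transplantation and -0.40 to 0.05 between others. These numbers were therefore taken as mice, though the labels name no mouse. After transplantation (-0.05 to 0.03) they were not. No pair of replicates agreed within sampling noise.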

Additional observations from a re-analysis of the deposited data

Results flagged for a closer look

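In 116 groups of 4 libraries, taken from the named members and class sums in each group before transplantation, the highest or lowest library was set against the rest by Dixon's criterion (0.829 for 4 values), which chance exceeds in about 1 of 20 groups. Selp low replicate 4 was far above the other 3 Selp low libraries for mt-Nd2 (252 CPM), mt-Nd3 (6.02 CPM) and Cox6a2 (0.795 CPM). Selp low replicate 1 was far above them for 4 nuclear subunits, Cox6a1 (205 CPM), Cox6b1 (244 CPM), Cox8a (323 CPM) and Atp5g1 (105 CPM), and for the summed nuclear members of complex IV (1921 CPM). Selp high replicate 2 was far below the other 3 Selp high libraries for Ndufc1 (33.6 CPM).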

How the results depend on the processing

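Of 2249 values recomputed for 101 results, 2092 kept their direction and their side of the threshold. The count of members higher after transplantation (5, against 12.9% of all genes) was 6 with DESeq2 (14.4% of all genes), 5 with limma voom (13.7%), 1 with no filter (5.54%), 10 without both replicate 4 libraries (15.3%) and 0 to 10 with single libraries left out (9.59 to 14.4%). With a replicate block, 10 were higher and 2 lower (15.6 and 16.6% of all genes), but the numbers pair libraries only before transplantation, where the block changed no call. The nuclear median in the difference between stages was 0.03 without both replicate 4 libraries and Selp low-derived replicate 2. Values that changed sign lay near 0 or rested on a few libraries, and the cause was not tested. Between stages, Cox4i2 was -0.14 with the block, -0.15 without both replicate 4 libraries and -0.28 without Selp low-derived replicate 2 as well, where Cox6a1 was -0.04 and Cox6b1 -0.05. Cox6a1 was -0.00 with no filter, and mt-Co1 was 0.06 with the block and 0.03 without both replicate 4 libraries. After transplantation, without the 3 libraries, mt-Nd1 was 0.27 and mt-Co1 0.01, and mt-Nd3 was -0.01 with only the groups compared and -0.02 with the block.

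With single libraries left out, the changes between stages ran from -0.09 to 0.07 for Cox4i1, -0.10 to 0.17 for Cox4i2, -0.07 to 0.08 for Cox6a1, -2.59 to 1.75 for Cox6a2, -0.09 to 0.10 for Cox6b1, -0.02 to 0.14 for Cox8a, -0.16 to 0.02 for mt-Co1, -0.16 to 0.15 for mt-Cytb, -0.15 to 0.39 for mt-Nd2, -0.16 to 0.21 for mt-Nd4, -0.04 to 0.33 for mt-Nd5 and -0.07 to 0.63 for mt-Nd6. The difference after transplantation ran from -0.34 to 0.01 for mt-Co1, -0.31 to 0.27 for mt-Nd1 and -0.29 to 0.28 for mt-Nd3. Depth limits Cox6a2, Cox7a1, Cox7b2, mt-Nd3 and the members not tested, whose reads are few.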

Other observations

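Markers of other cell types were summed in every library as the background to the bulk levels. The sum over 11 erythroid markers lay between 2394 and 5138 CPM in Selp low, between 2448 and 4505 in Selp high, between 2838 and 4491 in Selp low-derived and between 2805 and 3527 in Selp high-derived libraries, highest within the first 3 groups in the same libraries that led in neutrophil markers. CD48+ progenitor markers (4 genes) summed to 125 to 696 CPM before and 369 to 570 after transplantation. Megakaryocyte and platelet markers (9 genes) summed to 218 to 396, B cell markers (9) to 65.3 to 132, T and NK cell markers (8) to 139 to 313 before and 86.2 to 126 after, macrophage and monocyte markers (8) to 20.5 to 237, mast cell, basophil and eosinophil markers (7) to 5.01 to 566 and endothelial and stromal markers (8) to 124 to 305 CPM over the 14 libraries. Gp1bb, Pax5 and Gzma were under 1 CPM in every library.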
